A study of Mus musculus with 6 samples.

Results

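Transcripts of 8 genes for the synthesis, control and export of cholesterol were followed in mouse thoracic aorta, whose transforming growth factor-β (TGF-β) receptors had or had not been deleted in smooth muscle cells (SMCs). The genes were chosen by name. They were the enzyme genes Hmgcs1, Idi1, Fdps and Sqle, the regulators Srebf2 and Insig1, and the exporters Abca1 and Abcg1, and they made up 8 of the 52636 genes counted. None of the 8 encodes a lipoprotein receptor, so uptake genes are described from a separate list. Bulk RNA was sequenced from aortas of mice 12 weeks of age. The 4 wild-type (WT) libraries came from C57BL/6J mice that received no treatment. The 2 libraries labelled KO came from Tgfbr1/2iSMCKO mice, which the labels also give as strain C57BL/6J. These mice carried loxP-flanked alleles of both Tgfbr1 and Tgfbr2, the Myh11-CreERT2 transgene and the mT/mG membrane reporter, and were given tamoxifen from 11 weeks of age (5 daily doses of 2 mg). Cre from the Myh11 promoter acts in SMCs, and other cells of the wall keep their receptors. WT mice had neither the transgenes nor tamoxifen, so the effects of the deletion, Cre, reporter and drug cannot be told apart.

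Cholesterol is built from acetyl-CoA through mevalonate, isoprenoid units, squalene and lanosterol. When sterols in the endoplasmic reticulum run low, the transcription factor SREBP2, the product of Srebf2, is escorted to the Golgi, cut and sent to the nucleus, where it raises the enzyme genes, genes of lipoprotein uptake and its own gene. Insig1 protein holds SREBP2 back when sterols are plentiful, while oxysterols then activate the liver X receptors (LXRs), which raise Abca1 and Abcg1. In the arterial wall these pathways are best known from cholesterol loading of macrophages and SMCs in atherosclerosis.

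RefSeq promoter sequence (GRCm38.p6) was at hand for 5 of the 8 genes. The 150 bases that end just before the first annotated transcript start are shown for 4 of them, the regulator that changed, 1 enzyme, the second regulator and 1 exporter, so that their control regions can be compared. Capitals mark 3 motifs that were searched on both strands: the letters TCACNCCA, which resemble the sterol regulatory element bound by SREBP, the E-box CACGTG, which clock proteins and SREBPs can bind, and the CCAAT box, which reads ATTGG when it lies on the opposite strand.
Srebf2, chr15:82147031-82147180, plus strand: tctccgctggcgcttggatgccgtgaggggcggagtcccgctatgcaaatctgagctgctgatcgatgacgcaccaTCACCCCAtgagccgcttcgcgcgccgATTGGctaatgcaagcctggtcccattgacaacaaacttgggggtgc
Hmgcs1, chr13:119690201-119690350, plus strand: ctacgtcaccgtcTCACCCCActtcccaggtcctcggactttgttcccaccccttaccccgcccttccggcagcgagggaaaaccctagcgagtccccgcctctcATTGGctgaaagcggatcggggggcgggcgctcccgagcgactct
Insig1, chr5:28071213-28071362, plus strand: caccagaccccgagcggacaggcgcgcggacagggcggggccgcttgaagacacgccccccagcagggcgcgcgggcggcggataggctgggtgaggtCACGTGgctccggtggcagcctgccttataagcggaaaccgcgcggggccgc
Abca1, chr4:53159896-53160045, minus strand: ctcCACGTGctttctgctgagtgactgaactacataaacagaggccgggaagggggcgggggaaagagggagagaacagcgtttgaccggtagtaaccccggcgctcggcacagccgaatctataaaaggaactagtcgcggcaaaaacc

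Both Srebf2 and Hmgcs1 held the element-like letters, and CCAAT boxes were found in these promoters and in those of Insig1 and Idi1. Counted back from the RefSeq start, the letters lay at -162 to -155 in Srebf2, with the CCAAT box at -135 to -131. They lay at -137 to -130 in Hmgcs1, which had CCAAT boxes at -237 to -233, -176 to -172 and -45 to -41, the last of them inside the printed stretch. Insig1 had its CCAAT box at -216 to -212, outside the printed stretch. The promoter of the enzyme gene Idi1, which is not printed, held neither the element-like letters nor the E-box. It had CCAAT boxes at -45 to -41 and -14 to -10. E-boxes lay at -101 to -96 in Insig1 and at -147 to -142 in Abca1. Over the 250 bases before the start, the element-like letters were present in 3.67% of 32851 RefSeq promoters, the E-box in 6.02% and the CCAAT box in 33.8%. The matches do not overlap each other, and they describe the letters only. The element-like letters were shortened by 1 base after the promoters had been seen, because the longer form was not present in Srebf2.

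The libraries held 19650983 to 28860598 estimated counts. Smooth muscle markers were high throughout, with a summed level of 42932 to 53162 TPM (counts scaled for gene length and then for library size) in WT, 46767 for the library labelled KO-1 and 41624 for that labelled KO-2, and 0 of 9 passed the test (DESeq2, 4 at an unadjusted p under 0.05, 0 by edgeR). Whole-gene counts of Tgfbr1 and Tgfbr2 overlapped between groups (DESeq2 adjusted p = 0.63 and 0.838). Exons that Cre leaves in place and cells that lack Cre contribute to them, so the label is not checked by these counts, and every direction given is that of the libraries labelled KO. KO-1 and KO-2 stood apart from each other. Mitochondrial transcripts took 2.62% to 4.44% of counts in WT, 3.38% in KO-1 and 11.7% in KO-2. Brown adipocyte markers, 5 of 7 of which rose, summed to 78.7 to 103 TPM in WT, 258 in KO-1 and 1438 in KO-2, with Ucp1 at 0 in WT-4 and Elovl3 at 0 in WT-1, WT-2, WT-3 and KO-1. Cardiac markers, 5 of 9 of which rose, summed to 45.8 to 99.5 TPM in WT, 1709 in KO-1 and 101 in KO-2, with Nppa at 0 in WT-1, WT-2 and WT-3. All 6 mesothelial markers rose, to 46.4 and 97.5 TPM from 10.8 to 20.2 in WT, as did 2 of 8 fibroblast markers. Values of KO-1 and KO-2 are therefore given apart, and some results, but not all, are also given with 1 of these libraries left out. With 1 KO library left, the spread comes from the WT libraries alone and the lone library is assumed to vary like them. In bulk tissue, fewer cells of a type and less RNA per cell cannot be told apart.

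To ask whether cholesterol genes shift when SMCs lose TGF-β receptors, the libraries labelled KO were compared with WT. All 8 genes had enough counts to be tested. Srebf2 alone passed the adjusted p-value of 0.05 over all genes, with a fall to 0.65 of the WT level, and none of the 8 also changed by more than 2-fold. That is 1 of 8 genes, where 10.4% of the 17070 tested genes passed (4.69% lower and 5.71% higher) and 5.64% also exceeded 2-fold (2.1% lower and 3.54% higher). In edgeR, the same single gene passed. The groups did not overlap in 4 of the 8 genes, with KO lower for Srebf2 and Fdps and higher for Abca1 and Abcg1, and this held for 34.3% of all tested genes (16.4% lower and 17.9% higher). The median log2 fold change was -0.006 over the 8 genes and 0.012 over all tested genes.

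**Figure D1:**
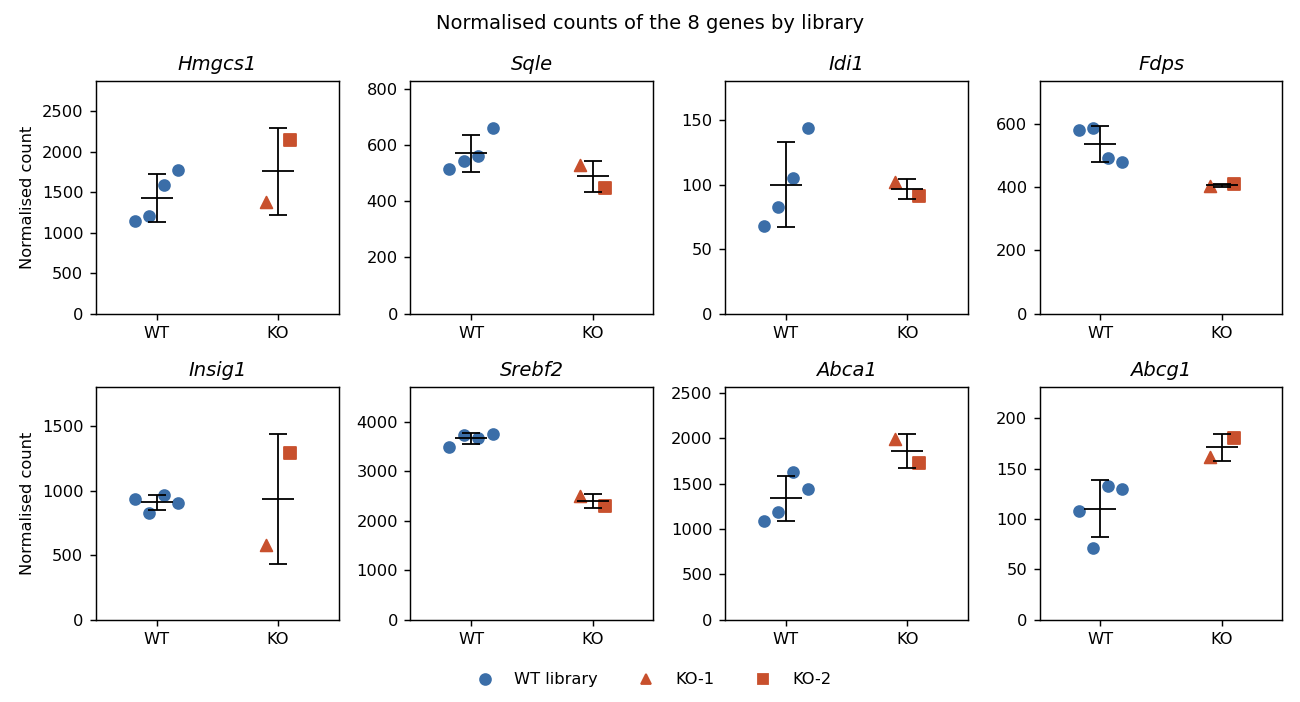
Normalised counts (reads scaled by DESeq2 size factors, vertical axes from 0) of the 8 genes in each of the 4 WT libraries and in KO-1 and KO-2. Horizontal bars are group means and error bars are the SD. Srebf2 falls from 3666 to 2399 with narrow spread, Insig1 lies below every WT library in KO-1 (578) and above every WT library in KO-2 (1294), and Abca1 and Abcg1 lie above the WT range in both.

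Srebf2 (ENSMUSG00000022463.7, chromosome 15, 82147181 to 82205379, plus strand of GRCm38), the gene for the master activator of sterol synthesis, had normalised counts of 3500, 3734, 3670 and 3762 in the WT libraries (WT-1 first), 2501 in KO-1 and 2297 in KO-2. The groups did not overlap, and both libraries labelled KO lay below the lowest WT library. The WT mean was 3666 ± 118 (SD, n = 4) and the KO mean 2399 ± 144 (SD, n = 2). On the log2 scale Srebf2 fell by 0.61 ± 0.15 (standard error, DESeq2 adjusted p = 0.00117), and the 95% interval of the fold ran from 0.53 to 0.80. In normalised counts Srebf2 also varied least of the 8 among WT libraries, with a coefficient of variation of 3.21%, where the median of 11435 tested genes (those with 100 or more normalised counts on average) was 12.0%. In TPM it was not the least variable, at 72.1 ± 6.70 (SD) in WT, beside 41.5 ± 3.19 for Insig1. The fall was 0.55 on the log2 scale in KO-1 and 0.67 in KO-2 against the WT mean. It passed in edgeR and with any 1 library left out, although without KO-1 or KO-2 the spread was that of the WT libraries alone, with the adjusted p rising to 0.0635 once a trend with GC content was taken out and to 0.0719 when libraries were scaled on smooth muscle genes. The intronic microRNA gene Mir33, which lies inside Srebf2, was at 0 counts in each library, and its mature product was not measured.

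Insig1 (ENSMUSG00000045294.11, chromosome 5, 28071363 to 28078662, plus strand), whose protein retains SREBP2 in the endoplasmic reticulum, had 937, 826, 968 and 908 normalised counts in WT and 578 and 1294 in KO-1 and KO-2. The libraries labelled KO fell on opposite sides of a narrow WT range. Their ratio of 2.24 compares with a median of 1.22 over the same 11435 genes, while the WT libraries differed by no more than 1.17-fold, and it was the widest among the 8 genes. The log2 fold change was 0.039 ± 0.28 (standard error, DESeq2 adjusted p = 0.959). With KO-2 left out it was -0.64 (adjusted p = 0.0235), and with KO-1 left out 0.51 (0.0524), so the sign of the value changed with the library kept, and each of these fits compares 1 KO library with WT. Insig2, the second retention gene, had 1115 to 1388 in WT, 1782 in KO-1 and 1395 in KO-2 (log2 fold change 0.35, adjusted p = 0.275).

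The enzyme genes were taken in the order of the pathway. Hmgcs1 (ENSMUSG00000093930.2, chromosome 13, 119690379 to 119708260, plus strand), which makes HMG-CoA from acetoacetyl-CoA, had 1147, 1206, 1587 and 1769 normalised counts in WT, and 1382 and 2141 in KO-1 and KO-2. KO-1 lay inside the WT range and KO-2 above it. The log2 fold change was 0.30 (standard error 0.25, DESeq2 adjusted p = 0.529) and turned to -0.036 without KO-2. Idi1 (ENSMUSG00000058258.14, chromosome 13, 8885501 to 8892451, plus strand), which interconverts the 5-carbon isoprenoid units, was low, with 68.1, 82.6, 105 and 144 in WT and 102 and 91.0 in KO-1 and KO-2. Both libraries labelled KO lay within the WT range, whose ends differed by 2.12-fold. Its log2 fold change of -0.051 (standard error 0.39, adjusted p = 0.96) had a wide 95% interval, from -0.81 to 0.71, and turned to 0.18 without WT-4.

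Fdps (ENSMUSG00000059743.12, chromosome 3, 89093588 to 89101959, minus strand), which joins isoprenoid units into farnesyl diphosphate, had 580, 588, 493 and 480 normalised counts in WT and 402 and 409 in KO-1 and KO-2. Both libraries labelled KO lay below the WT range and within 1.02-fold of each other. The log2 fold change of -0.40 (standard error 0.20, 95% interval -0.80 to -0.00058) did not pass over all genes (DESeq2 adjusted p = 0.224). Sqle (ENSMUSG00000022351.14, chromosome 15, 59315077 to 59331192, plus strand) encodes squalene epoxidase, which oxidises squalene. Sqle had 514, 543, 560 and 662 in WT, and 527 and 449 in KO-1 and KO-2. KO-2 lay below the WT range and KO-1 within it (log2 fold change -0.22, standard error 0.21, adjusted p = 0.591). Processed pseudogenes that resemble Fdps and Idi1 over at least 200 bases at 90% identity or more had at most 3 counts in any library. Sqle shares 224 bases at 92.9% identity with a transcript of Sdccag8, which had up to 390 counts, so a part of the counts of either gene may have been assigned to the other.

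The exporters lay on the other side of the WT range. Abca1 (ENSMUSG00000015243.4, chromosome 4, 53030787 to 53159895, minus strand), which loads cholesterol onto apolipoprotein A-I, had 1084, 1193, 1630 and 1447 normalised counts in WT, and 1996 and 1725 in KO-1 and KO-2. Both libraries labelled KO exceeded every WT library. The WT mean was 1338 ± 247 (SD, n = 4) and the KO mean 1860 ± 192 (SD, n = 2), which differ by 0.48 ± 0.21 (standard error) on the log2 scale (DESeq2 adjusted p = 0.15). Abcg1 (ENSMUSG00000024030.6, chromosome 17, 31057675 to 31117988, plus strand), which exports cholesterol to high density lipoprotein, had 108, 70.9, 133 and 129 in WT, and 162 and 181 in KO-1 and KO-2. Here too both lay above the WT range, with a log2 fold change of 0.64 (standard error 0.34, adjusted p = 0.26). Neither exporter passed in any of the 15 alternative fits, where the lowest adjusted p was 0.0528 for Abca1 and 0.21 for Abcg1. Macrophages express both genes, and 9 of 12 macrophage markers rose in the libraries labelled KO, with summed levels of 1003 to 1129 TPM in WT, 1717 in KO-1 and 1572 in KO-2. The part of these cells in the exporter counts was not tested.

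Per unit of gene length, Srebf2 was the most abundant of the 8 in WT, at 72.1 ± 6.70 TPM (SD, n = 4). It was followed by Hmgcs1 at 44.2 ± 11.4 and Insig1 at 41.5 ± 3.19, whose WT ranges overlapped. Abca1 at 18.3 ± 4.07, Fdps at 17.9 ± 1.55 and Sqle at 14.6 ± 2.45 followed, each overlapping its neighbour, and the places of Abca1 and Fdps changed over when the longest transcript was used as length. Idi1 at 4.07 ± 1.56 and Abcg1 at 2.14 ± 0.60 were the lowest and also overlapped. Between Srebf2 and Hmgcs1, Insig1 and Abca1, and Sqle and Idi1 the WT ranges were apart. In KO-2 the level of Hmgcs1 (57.8 TPM) exceeded that of Srebf2 (39.7 TPM), an order seen in none of the WT libraries. TPM divides by the total of all transcripts, and on this scale Abca1 in KO-2 (20.6 TPM) fell within the WT range of 13.5 to 22.4 TPM, unlike its normalised count.

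**Figure D2:**
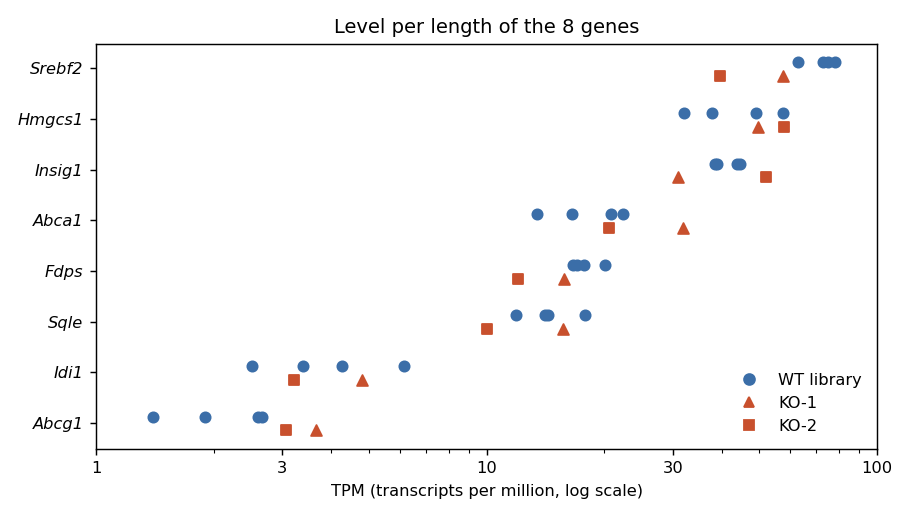
Level of the 8 genes in TPM (log axis), 1 point for each library, ordered by the WT mean. WT means run from 72.1 TPM for Srebf2 to 2.14 TPM for Abcg1, and in KO-2 Srebf2 (39.7 TPM) lies below Hmgcs1 (57.8 TPM).

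The rest of the pathway was read from lists to which the 8 genes belong. Of 21 sterol synthesis enzymes, Hmgcs1, Idi1, Fdps and Sqle among them, 2 fell, 0 rose and 19 did not pass, with a median log2 fold change of -0.021. Mvk, the kinase that phosphorylates mevalonate, fell by 0.62 on the log2 scale (DESeq2 adjusted p = 0.045), from 354 to 427 normalised counts in WT to 241 and 262 in KO-1 and KO-2. In edgeR 0 of the 21 passed, and Mvk passed in 3 of the 15 alternative fits. Mvk was lost without KO-1 (adjusted p = 0.137), KO-2 (0.0864), WT-1 (0.0839), WT-2 (0.125) or WT-3 (0.0503).

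KO-2 held the extremes of several enzymes. Msmo1, a sterol C4-methyl oxidase, had 731 to 976 normalised counts in WT, 791 in KO-1 and 318 in KO-2. Nsdhl, which acts in the same demethylation, had 297 to 379 in WT, 288 in KO-1 and 671 in KO-2. Neither passed (adjusted p = 0.284 and 0.328). Relative to the WT range, 9 of the 21 enzymes lay below it and 2 above it in KO-1, and 9 below and 7 above in KO-2. For single libraries the share over all genes was not taken, so these counts have no background beside them. In both libraries at once, 5 enzymes lay below the range and 0 above it. Of all tested genes, 16.4% lay below it in both and 17.9% above it in both. The median change from the WT mean was -0.12 in KO-1 and -0.089 in KO-2 on the log2 scale.

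**Figure D3:**
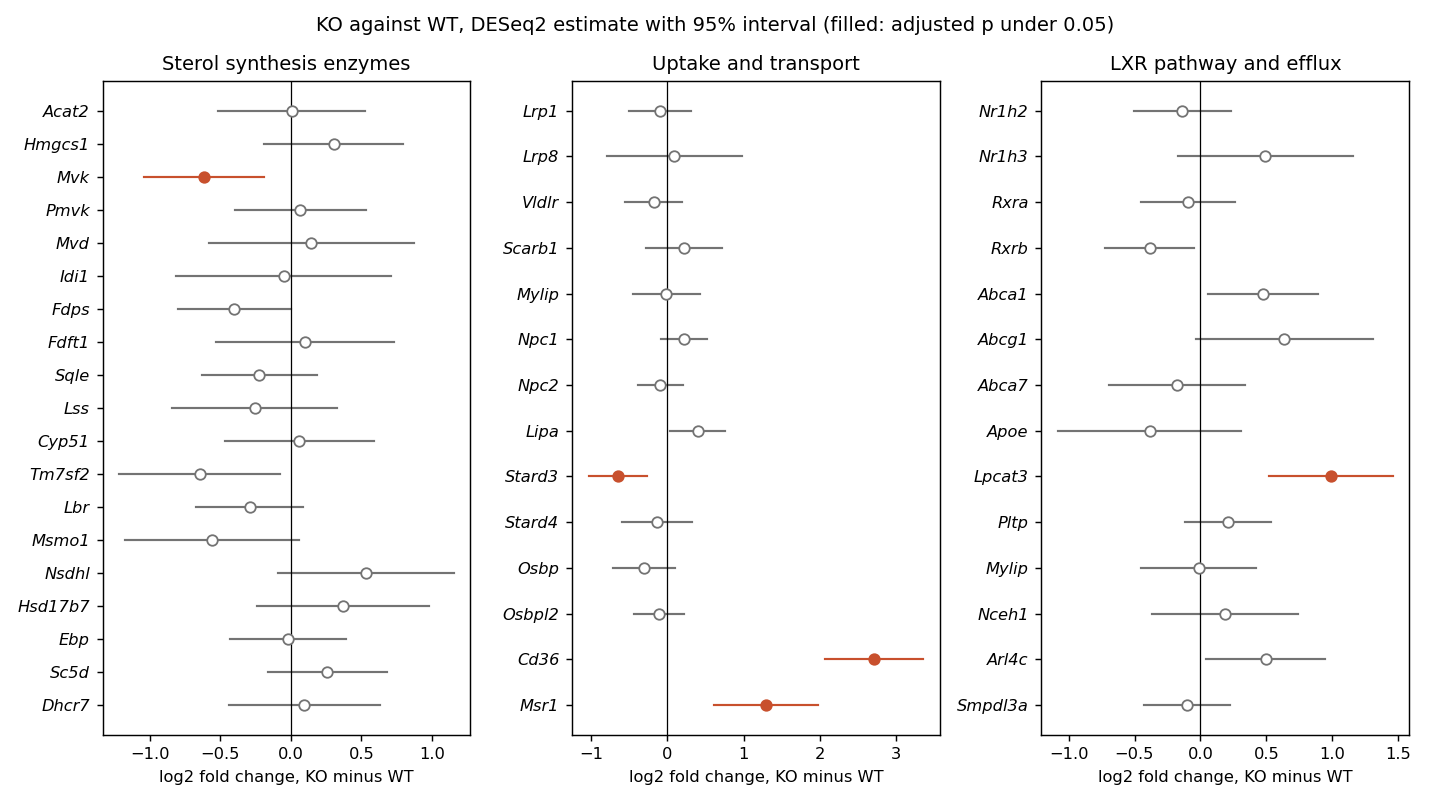
Log2 fold change of KO against WT with its 95% interval (DESeq2) for sterol synthesis enzymes, uptake and transport genes and LXR pathway and efflux genes, with filled points for adjusted p under 0.05. Not every list gene is drawn. Of the genes drawn, Mvk and Stard3 are lower with adjusted p under 0.05, and Cd36, Msr1 and Lpcat3 are higher. The horizontal scales differ between panels.

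Of 12 genes for SREBP processing and its regulators, Srebf2 fell and 11 did not pass (median log2 fold change 0.045). Srebf1, the paralogue that drives fatty acid genes, had 1252 to 1887 normalised counts in WT, and 964 and 1095 in KO-1 and KO-2, both below the WT range, with a log2 fold change of -0.61 just short of the threshold (DESeq2 adjusted p = 0.0501). Scap, the escort of both factors, had 1083 to 1414 in WT, and 1120 and 831 in KO-1 and KO-2 (-0.43, adjusted p = 0.19). The proteases Mbtps1 (-0.22, adjusted p = 0.507) and Mbtps2 (0.14, adjusted p = 0.798), which cut SREBPs in the Golgi, overlapped between groups.

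Among 16 genes of uptake and intracellular transport, 3 fell, 2 rose and 11 did not pass (median -0.094). Stard3, the gene for a cholesterol carrier of late endosomes, fell by 0.65 on the log2 scale (DESeq2 adjusted p = 0.0118). It had 662 to 811 normalised counts in WT, and 452 and 463 in KO-1 and KO-2. It passed in 10 of the 15 alternative fits, and was lost with the GC trend taken out (adjusted p = 0.0576), in edgeR without a filter (0.0601) and with smooth muscle size factors (0.10), among others. The lipoprotein receptor genes Vldlr, Lrp1 and Scarb1 overlapped between groups (adjusted p = 0.655, 0.85 and 0.698), as did Mylip, an LXR target that marks such receptors for degradation (adjusted p = 0.983).

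The genes that rose were scavenger receptors. Cd36, which also carries fatty acids into adipocytes and endothelial cells, had 231, 533, 429 and 366 normalised counts in WT, and 1726 and 3381 in KO-1 and KO-2, both far above the WT range (log2 fold change 2.71, standard error 0.33, DESeq2 adjusted p = 6.61e-14). It passed in all 15 alternative fits. Msr1, a receptor of macrophages, had 52.1 to 74.1 in WT, and 131 and 186 in KO-1 and KO-2 (1.29, adjusted p = 0.00435, and 0.146 without KO-2). The macrophage markers rose with them, as given above, and white adipocyte markers summed to 279 to 475 TPM in WT, 624 in KO-1 and 1919 in KO-2, with 3 of 8 past the test. Endothelial markers, 4 of 8 of which rose, summed to 285 to 509 TPM in WT, 715 in KO-1 and 577 in KO-2. The part of these cells in the counts of Cd36 and Msr1 was not tested.

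In the LXR pathway and efflux list of 14 genes, which holds Abca1 and Abcg1, 1 rose, 0 fell and 13 did not pass (median 0.086). The gene that rose was Lpcat3, an LXR target that remodels phospholipids, with 314 to 451 normalised counts in WT, and 650 and 913 in KO-1 and KO-2 (log2 fold change 0.99, DESeq2 adjusted p = 0.000997, and 0.0814 without KO-2). The receptors themselves, Nr1h3 (0.49, adjusted p = 0.419) and Nr1h2 (-0.14, adjusted p = 0.739), overlapped between groups, as did Apoe, which accepts exported cholesterol (-0.39, adjusted p = 0.582). Apoe varied widely in WT, with 5902, 6495, 2727 and 2348. Both libraries labelled KO lay above the WT range for 5 of the 14 genes and below it for 1, where 17.9% of all tested genes lay above and 16.4% below. Of 9 genes for cholesterol esters and oxysterols, Soat2 was too low to be tested and 0 of the other 8 passed (1 at an unadjusted p under 0.05, 0 by edgeR, median -0.040). That 1 was Cyp27a1, which makes 27-hydroxycholesterol, with 627 to 961 in WT, and 571 and 423 in KO-1 and KO-2 (-0.60, adjusted p = 0.092).

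Fatty acid synthesis genes, which share acetyl-CoA and SREBP control with the sterol pathway, were set beside these lists. Of 12 such genes 10 rose and 0 fell, 7 of them by more than 2-fold, with a median log2 fold change of 1.23. The rise came mainly from KO-2: the mean change of the 12 genes from WT was 2.21 on the log2 scale in KO-2 and 0.31 in KO-1, where WT libraries ran from -0.19 to 0.19. Scd1, the stearoyl-CoA desaturase, had 3258 to 7711 normalised counts in WT, 6253 in KO-1 and 91488 in KO-2, and Fasn, the fatty acid synthase, 2365 to 4154, 3726 and 31113. Both libraries labelled KO lay above the WT range for 7 of the 12 genes and below it for 0. Of all tested genes, 17.9% lay above it in both and 16.4% below. Elovl5 was among the 7, with 1471 to 1879 in WT, 2339 in KO-1 and 2882 in KO-2. So was Gpam, with 322 to 405, 587 and 642. Without KO-2, 1 of the 12 passed, and in edgeR 2 passed. The same mean over the 21 sterol enzymes was -0.16 in KO-1 and -0.069 in KO-2, with WT from -0.053 to 0.083. Brown and white adipocyte markers were highest in KO-2 (1438 and 1919 TPM, as against 258 and 624 in KO-1), and their part in the fatty acid genes was not tested.

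**Figure D4:**
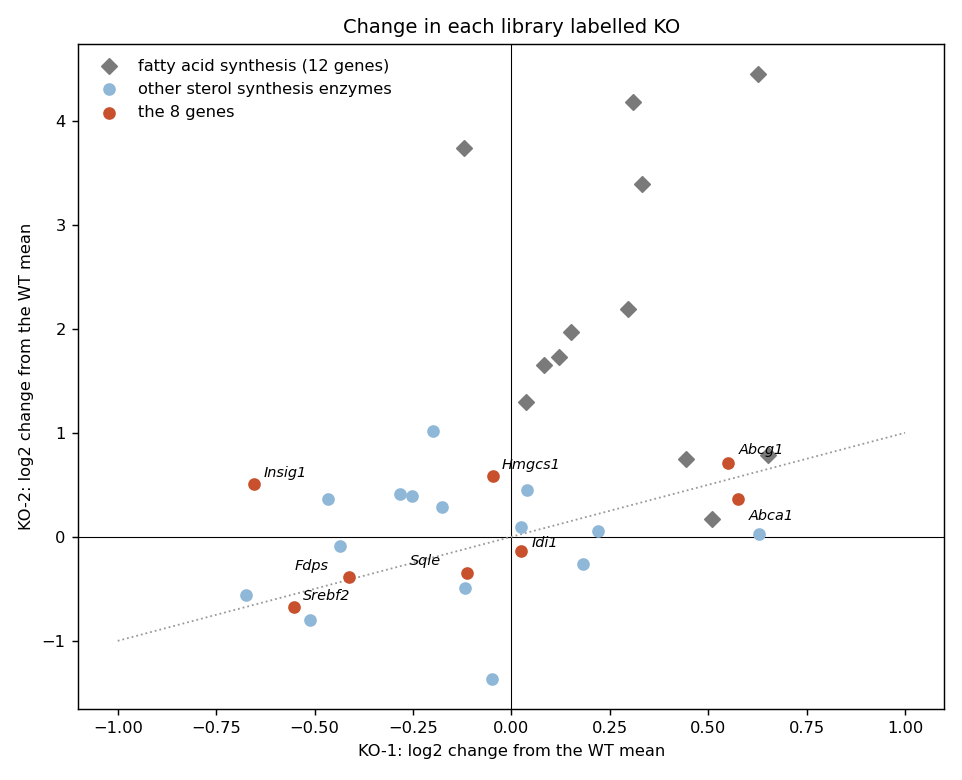
Log2 change from the WT mean in KO-1 (horizontal axis) and in KO-2 (vertical axis) for the 8 genes, other sterol synthesis enzymes, not all of which are drawn, and 12 fatty acid synthesis genes. The dotted line marks equal change in both libraries. Fatty acid genes rise in KO-2 (mean 2.21) far more than in KO-1 (mean 0.31). Insig1, Hmgcs1 and Idi1 differ in sign between the libraries, and Srebf2, Fdps, Sqle, Abca1 and Abcg1 move the same way in both.

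Joined without the fatty acid genes, the sterol lists held 70 genes, of which 69 were tested, 3 rose and 6 fell. That is 13.0% of those tested, beside 10.4% over all genes. Circadian clock genes also differed between groups, with 12 of 14 past the test (3 higher and 9 lower) and summed levels of 1451 to 1689 TPM in WT, 493 in KO-1 and 847 in KO-2. The labels give no time of collection. Since sterol synthesis has a daily rhythm in liver, these values are set beside those of Srebf2, and their part in them was not tested.

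Patterns across libraries were compared last, by the root mean square (RMS) difference between log2 changes from the WT mean over the 6 libraries, among 11440 genes that averaged 100 or more normalised counts. Closest to Srebf2 were Tusc1 (RMS 0.051), Tns1 (0.054), Pik3c2b (0.055), Gpn2 (0.058) and Glg1 (0.058), and 4 of these passed the DESeq2 test, Gpn2 (adjusted p = 0.183) being the other one. Closest to Abca1 were Arsk (0.043), Prss23 (0.047), Ppp1cb (0.052), Ints8 (0.053) and Gmps (0.055). Abcg1 had more distant neighbours, Clasp1 (0.077), Crybg1 (0.098), Edn1 (0.124), Tank (0.126) and H2-Q4 (0.126). The mean profile of Hmgcs1, Sqle, Idi1, Fdps and Insig1 was -0.17, -0.12, 0.034 and 0.18 in the WT libraries, -0.24 in KO-1 and 0.045 in KO-2. Its KO-2 value averages genes of opposite sign: Hmgcs1 (0.59) and Insig1 (0.51) with Sqle (-0.34), Idi1 (-0.13) and Fdps (-0.39). Nearest to this profile were Shank3 (0.035), BC024978 (0.048), Zfp715 (0.049), Tnrc6c (0.055) and Magi1 (0.060). With 6 libraries such likeness describes these samples only.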

How the data were processed

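Thoracic aorta RNA of 4 WT and 2 KO libraries was analysed. The study gives the same numbers of mice, 4 and 2, so each library is taken as 1 mouse. Per the labels and the study's methods, the authors trimmed the reads, mapped them with HISAT2 to GRCm38 and estimated expression with StringTie. What they deposited is a table of estimated counts, 1 per gene and library, in whole numbers that are unscaled for depth and were not rounded further here. Whether counting used strand is not given in the sources used here. Column codes do not repeat the sample titles, and the match was inferred: the code with 4 columns was read as WT and the code with 2 as KO. The labels give no batch or date.

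DESeq2 1.42.0 in R 4.3.3 compared KO with WT (Wald test, group as the only term, independent filtering at 0.05). A gene passed at a Benjamini-Hochberg adjusted p-value under 0.05 over the 17070 genes that had one. DESeq2 gave none to 8415 others that had counts. Changes of single libraries were taken after adding 0.5 to normalised counts. TPM used the exon union of GENCODE models as length. Symbols were found for 52403 of 52636 identifiers. Genes were named by a rule: the 8 genes in full, list genes that passed, and the 5 genes most like each profile. A few list genes are counted with their list and not reported here. Other genes named were chosen after their values were seen. The 8 genes and the lists were chosen with earlier results of these data known. There were 15 alternative fits, which included edgeR 4.0.16 (quasi-likelihood) and leaving out each library. The main DESeq2 fit and the edgeR fit with a filter were also run on simulated counts with the same spread in every gene. The remaining fits were not run on simulated counts. The authors' own differential expression results were not used. Depth limits the low genes most. The 95% intervals given are for the estimated difference between the groups, and single libraries can lie outside them.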

Additional observations from a re-analysis of the deposited data

Results flagged for a closer look

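Each value was checked for a lone WT library, by Dixon's ratio at the 95% level for 4 samples. The 41 values checked included the normalised counts of the 8 genes, none of which stood out, and the scores of the lists, a score being the mean log2 change of a list's genes from the WT mean. Chance would give 2.05 such values, and 2 were seen. For brown adipocyte markers WT-4 scored -0.818, and the remaining WT libraries scored 0.199 to 0.336. For endothelial markers WT-1 scored -0.408, and the remaining WT libraries scored 0.0858 to 0.181. With 2 libraries, the KO group could not be checked this way.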

How the results depend on the processing

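Directions of Sqle, Fdps, Srebf2, Abca1 and Abcg1 were the same in all 15 alternative fits, and Srebf2 alone of these passed in any. Srebf2 did not pass with the GC trend taken out (log2 fold change -0.41), with size factors from smooth muscle genes (-0.55), with the replicate block (-0.59, adjusted p = 0.284) or when tested against a 2-fold change (-0.61), and 0 of the 8 genes passed in these 4 fits. Its value ran from -0.67 to -0.54 when 1 library was left out. Hmgcs1 ran from -0.036 to 0.59, Idi1 from -0.19 to 0.18 and Insig1 from -0.64 to 0.51 over the same 6 fits, and 1 to 2 of the 8 genes passed, Insig1 being the second without KO-2. Idi1 also turned to 0.36 under the replicate block and 0.010 with smooth muscle size factors, and Insig1 to -0.042 with the GC trend taken out and -0.023 under the block. Deviations of same-numbered libraries from their group means had r = -0.087 for WT-1 with KO-1 and 0.014 for WT-2 with KO-2, over 15511 genes. With 2 libraries labelled KO, their deviations mirror each other, so these values cannot show whether the numbers pair the samples. With the longest transcript as length, Fdps ranked 4 and Abca1 5 by WT level.

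Over all genes, 996 passed in edgeR, 931 in edgeR without a filter, 628 under the replicate block and 114 against a 2-fold change, and 1113 to 2439 with 1 library left out, against 1775. Of these 1775, 54.9% were higher, and of the 1395 that passed with smooth muscle size factors 66.2% were higher. Genes that also exceeded 2-fold numbered 962, with 633 in edgeR, 561 under the block, 114 against 2-fold and 636 to 1284 with 1 library left out, the lowest of each range without KO-2.

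Of the sterol synthesis enzymes, 0 passed with the GC trend taken out, in either edgeR fit, under the block or against 2-fold, 1 with smooth muscle size factors or total counts, and 1 to 2 with 1 library left out. Of the SREBP regulators, 2 passed without independent filtering, 0 with the GC trend, the block, smooth muscle factors or the 2-fold test, and 1 to 3 with 1 library left out. Of the uptake genes, 3 passed in edgeR without a filter and with smooth muscle factors, 1 under the block and against 2-fold, and 3 to 8 with 1 library left out. Of the LXR list, 2 passed with the GC trend, 0 against 2-fold and 0 to 1 with 1 library left out. Of the esterification list, 0 to 1 passed with 1 library left out. Of the fatty acid genes, 2 passed in edgeR, 4 in edgeR without a filter, 1 under the block, 0 against 2-fold, and 1 to 11 with 1 library left out. For the 18 other list genes that passed, 166 of 270 fits kept the call, 104 lost it and 0 turned its direction. The causes were not tested. With 2 libraries labelled KO, the number of libraries limits the precision, as the width of the intervals shows. In the fits without KO-1 or KO-2 the KO arm is 1 library, which is assumed to vary like the WT libraries.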
